A study of Mus musculus with 12 samples.

Results

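The Homer genes of the prefrontal cortex were followed over the day by their 10 probe sets, which are all the probe sets of the array annotated to Homer1 (6), Homer2 (3) or Homer3 (1) alone, among 45037 in the table. Homer1 had been chosen because earlier results on these same arrays showed it to change with time. Its values over the 4 time points are therefore described without a test, while Homer2 and Homer3 were taken in as the other members of the family. RNA came from the prefrontal cortex of C57BL/6J mice, obtained at 10 weeks of age and kept under 12 h of light and 12 h of dark. Each time point had 3 mice, 1 per array: ZT3 and ZT9 fall in the light phase, ZT15 and ZT21 in the dark phase, when brains were taken under red light. ZT is zeitgeber time, the hours since the lights came on. All groups shared strain, age at arrival, housing and free access to food and water. The tissue was the front of the cortex without the olfactory bulb and a frontal slice freed of deeper structures, so it held neurons, glia and vessels together. In such bulk tissue, fewer cells of a type and less RNA per cell cannot be told apart.

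Homer proteins are adaptors of the postsynaptic density. An EVH1 domain near the amino end binds proline-rich stretches in the group I metabotropic glutamate receptors, in the IP3 and ryanodine receptors that release calcium and in the Shank scaffolds, and a coiled coil at the other end joins long Homer proteins to one another and so ties these partners together. Homer1 also gives a short transcript, Homer1a, which neurons induce as an immediate early gene during activity and which is well known to rise in the mouse brain with time awake. Its product lacks the coiled coil, so it binds the partners without linking them and competes with the long forms. Mice sleep mostly in the light and are active mostly in the dark.

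Homer1 lies on chromosome 13 (93303757 to 93405129, GRCm38.p6), with 5 RefSeq transcripts, Homer2 on chromosome 7 (81600481 to 81706925) and Homer3 on chromosome 8 (70282880 to 70294361). The 250 bases before the first start of Homer1 are shown because they set it apart from its relatives by letters that a factor of activity-driven transcription, CREB, is known to bind. The capitals mark TGACG, the core of a cyclic AMP response element, searched on both strands. For Homer2 the same window is shown with its only match among the motifs searched, TTANGTAA, the D-box of the clock-controlled PAR bZIP factors, in capitals. Both are from RefSeq, 5′ to 3′ on the strand of the gene.
Homer1, chr13:93303507-93303756, plus strand: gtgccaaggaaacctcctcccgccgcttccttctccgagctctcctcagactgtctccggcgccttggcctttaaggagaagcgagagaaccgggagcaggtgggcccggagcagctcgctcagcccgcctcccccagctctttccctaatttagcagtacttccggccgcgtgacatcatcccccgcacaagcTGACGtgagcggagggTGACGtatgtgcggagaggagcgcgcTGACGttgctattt
Homer2, chr7:81706926-81707175, minus strand: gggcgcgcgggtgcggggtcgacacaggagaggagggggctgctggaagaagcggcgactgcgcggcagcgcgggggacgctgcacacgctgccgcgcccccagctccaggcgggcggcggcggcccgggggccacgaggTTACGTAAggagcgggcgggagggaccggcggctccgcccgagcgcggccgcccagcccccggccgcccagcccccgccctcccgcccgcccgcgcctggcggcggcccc

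The Homer1 window held TGACG 3 times, beginning 56, 40 and 14 bases before the start. At least 3 matches were found in 0.688% of 32851 windows of the same length in the RefSeq table, and at least 1 in 17.8%. None of the 3 is part of the full palindrome TGACGTCA, which 1.55% of windows hold. The second start of Homer1, the second start of Homer2 and the start of Homer3 held no TGACG. The D-box pattern was found in 2.06% of windows, in the first Homer2 window and in that of the second Homer1 start. CACGTG and CACGTT, the E-box forms that clock proteins bind, and TGANTCA, the site of AP-1, had no match in any of the 5 Homer windows, against 6.02%, 3.85% and 6.75% of all windows. CACGTG and CACGTT do not overlap with each other, and TGACG is contained in TGACGTCA. These are matches of letters and no evidence of binding.

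Values are log2 of the deposited intensity, which the authors obtained with GCRMA, a method that joins the probes of a probe set into 1 value. The position of the probes within the gene is not used here, so no probe set is assigned to the short or the long transcripts. The ending _a_at marks probe sets designed to match several transcripts of 1 gene. Probe sets differ in how well they bind, so their levels are not set against each other and only the change of each over time is described. A range is the highest minus the lowest mean of the 4 time points, with a standard error from limma, which fits a linear model per probe set and shares information on the spread among them. The 54.5% of probe sets with the highest means were tested, down to a mean log2 of 4.87, which took in all 6 of Homer1, 2 of the 3 of Homer2 and not the 1 of Homer3.

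All 6 probe sets of Homer1 had their lowest mean at ZT9, late in the light, and their highest at ZT15, early in the dark. Their ranges ran from 0.61 to 3.37, against a median range of 0.27 over all tested probe sets. In every one, all 3 mice at ZT15 lay above all 3 at ZT9, which held for 4.47% of all tested probe sets. In 1421768_a_at they were barely apart, with 8.966 in the lowest ZT15 mouse and 8.962 in the highest ZT9 mouse. The order with ZT9 lowest and ZT15 highest was also found in 4.47%. No Homer probe set of the tested 8 had all ZT15 mice below all ZT9 mice, as 5.02% of tested probe sets had. Since Homer1 was chosen for this change, these counts describe it and support nothing further.

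**Figure D1:**
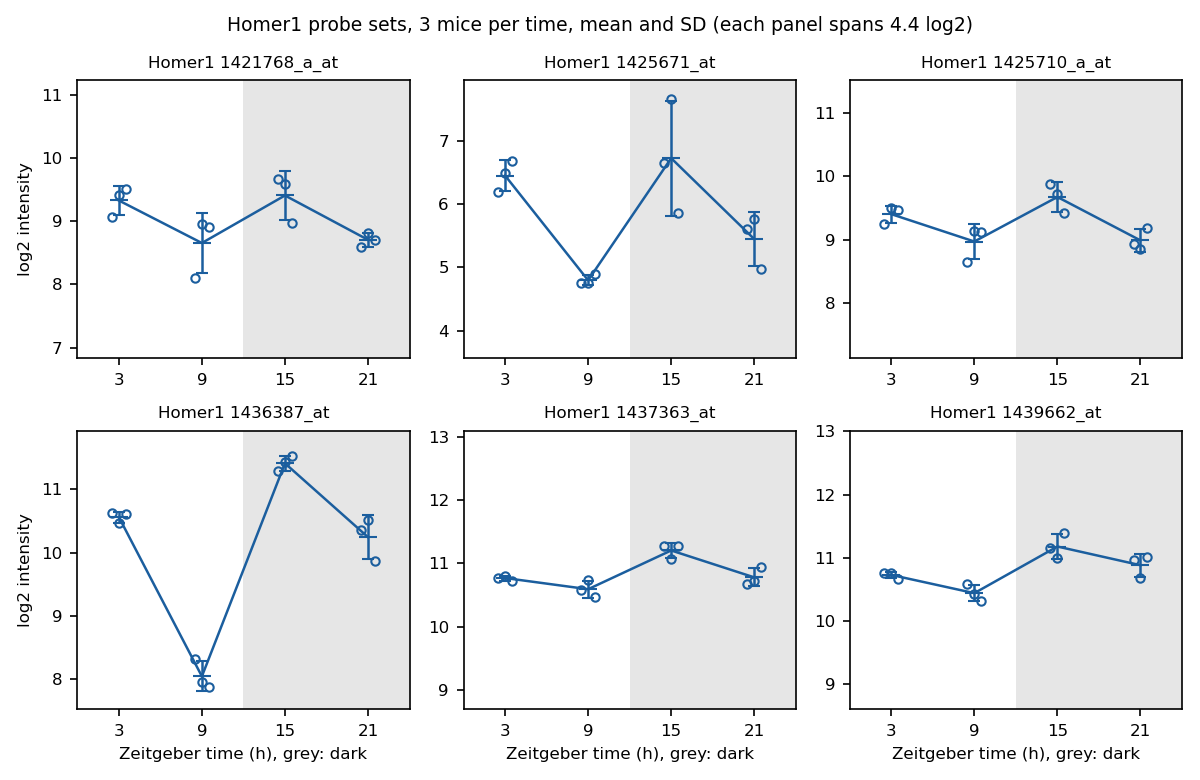
Log2 intensity of the 6 Homer1 probe sets (vertical axis, the same span in each panel) against zeitgeber time in hours, with grey for the dark phase. Circles are the 3 mice at each time and bars the mean and SD; 1436387_at falls to 8.04 at ZT9 and reaches 11.41 at ZT15, and the other 5 move the same way by 0.61 to 1.93.

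The probe set 1436387_at moved furthest. At ZT3 the 3 mice had log2 values of 10.62, 10.46 and 10.61. At ZT9 they had 8.32, 7.95 and 7.87. At ZT15 they had 11.28, 11.43 and 11.52, and at ZT21 10.35, 10.52 and 9.86. The ZT9 mice stood apart below all others and the ZT15 mice apart above all others, while ZT3 and ZT21 overlapped. The means were 10.56 ± 0.09 at ZT3, 8.04 ± 0.24 at ZT9, 11.41 ± 0.12 at ZT15 and 10.24 ± 0.34 at ZT21 (SD, n = 3 each). From ZT9 to ZT15 the difference was 3.37 (standard error 0.17), or 10.3-fold, and from ZT3 to ZT9 the mean fell by 2.52 within the light phase. In intensities, the ZT9 mice lay between 234 and 319 and the ZT15 mice between 2494 and 2938. ZT15 lay 0.85 above ZT3, beyond the larger SD of the pair, and ZT21 lay above ZT9 with no overlap, whereas ZT3 and ZT21, which differed by 0.32, did not differ beyond their spread. Leaving out any 1 array gave ranges of 3.28 to 3.50.

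A second pattern was shared by 1421768_a_at, 1425710_a_at and 1425671_at, in which ZT3 and ZT15 overlapped and ZT21 lay below ZT3 in every mouse. For 1421768_a_at the values were 9.07, 9.41 and 9.50 at ZT3, 8.10, 8.96 and 8.90 at ZT9, 9.66, 9.59 and 8.97 at ZT15 and 8.60, 8.81 and 8.70 at ZT21. For 1425710_a_at they were 9.25, 9.50 and 9.46, then 8.65, 9.14 and 9.12, then 9.88, 9.72 and 9.43, and at last 8.93, 8.85 and 9.19. In both, ZT9 and ZT21 overlapped and differed by only 0.05 and 0.02, and ZT3 and ZT15 overlapped as well, with means 0.08 and 0.27 apart, the latter beyond the larger SD of 0.23. ZT21 lay below ZT3 in every mouse, by 0.62 and 0.42. These 2 therefore split into an upper pair of times, ZT3 and ZT15, and a lower pair, ZT9 and ZT21. For 1421768_a_at neither extreme held its place in every setting. The mean of ZT3 passed that of ZT15 under quantile normalization (9.40 against 9.37) and without ZT3 replicate 1, ZT15 replicate 1 or ZT15 replicate 2, and ZT21 became the lowest time without ZT9 replicate 1 or ZT21 replicate 2. For 1425710_a_at ZT15 was the highest time in all 21 settings, and ZT21 became the lowest without ZT9 replicate 1 or ZT21 replicate 3. Settings that change only the filter or the fit leave the time means as they are, so they could not alter the order.

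The dimmest of the Homer1 probe sets, 1425671_at, had the second largest range, 1.93 (standard error 0.36), and the widest spread between mice. Its values were 6.19, 6.49 and 6.68 at ZT3, 4.75, 4.75 and 4.89 at ZT9, 6.65, 7.67 and 5.86 at ZT15 and 5.61, 5.77 and 4.97 at ZT21. All ZT9 mice lay below all others, and 2 of them held the same intensity, 26.9. These ZT9 values were near the lowest mean tested, 4.87, so the size of the range rests on very dim signals. ZT21 also stood clear of ZT9 and below ZT3. The SD at ZT15 was 0.91, and the difference of 0.27 between ZT15 and ZT3 was within it. Without ZT15 replicate 2, ZT3 was the highest time, with 6.45 against 6.26.

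In the third pattern, that of 1437363_at and 1439662_at, ZT15 was highest and ZT3 and ZT21 lay close together. In 1436387_at ZT15 was highest and ZT3 and ZT21 overlapped as well, but its fall at ZT9 was far larger. For 1437363_at the values were 10.77, 10.81 and 10.73 at ZT3, 10.57, 10.73 and 10.47 at ZT9, 11.27, 11.07 and 11.27 at ZT15 and 10.67, 10.72 and 10.94 at ZT21. For 1439662_at they were 10.76, 10.76 and 10.67, then 10.58, 10.42 and 10.32, then 11.16, 10.99 and 11.39, and last 10.96, 10.68 and 11.01. The ZT15 mice of 1437363_at stood above all others, and those of 1439662_at overlapped with ZT21, though the means differed beyond the larger SD. ZT3 and ZT21 differed by 0.01 and 0.15 and not beyond their spread. The ranges, 0.61 (standard error 0.10) and 0.74 (standard error 0.12), correspond to 1.53-fold and 1.67-fold. Both kept ZT9 as the lowest and ZT15 as the highest time in all 21 settings of the processing, as 1436387_at did. Only settings that changed the values or left out an array could have altered this order.

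The Homer1 probe sets did not change in proportion to one another. Within an array, the log2 ratio of 1436387_at over 1437363_at was -0.15, -0.34 and -0.12 at ZT3, -2.25, -2.78 and -2.60 at ZT9, 0.02, 0.36 and 0.25 at ZT15 and -0.32, -0.20 and -1.08 at ZT21. The ratio was low in all ZT9 mice and in no other. The same held for the ratio over each of the other 4: the highest ZT9 mouse lay below the lowest mouse of all other times. From ZT9 to ZT15 the mean ratio rose by 2.75 over 1437363_at, 2.66 over 1425710_a_at, 2.63 over 1439662_at and 2.61 over 1421768_a_at. Over 1425671_at no rise is given, since its ZT9 values were near the lowest mean tested. These ratios use the values for which Homer1 was chosen and are a description of unequal change between probe sets of 1 gene.

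**Figure D2:**
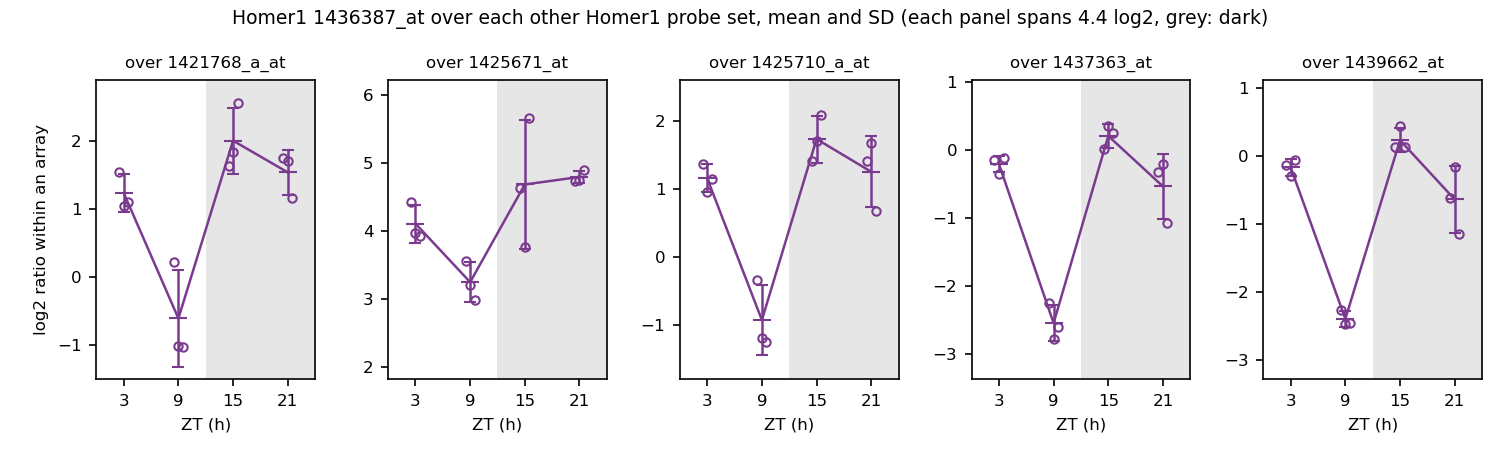
Log2 ratio of Homer1 1436387_at over each of the other 5 Homer1 probe sets within the same array (vertical axis) against zeitgeber time in hours, with grey for the dark phase. Circles are mice and bars the mean and SD of 3; in each panel the 3 ZT9 mice lie below the other 9.

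Across the 12 arrays, the 15 pairs of Homer1 probe sets correlated at Pearson's r of 0.26 to 0.93, with a median of 0.73. The points share the time course, so r was also taken after removal of the 4 time means, where it ran from -0.85 to 0.86 with a median of -0.07, and was above 0 in 6 of 15 pairs. The closest pair by either measure was 1421768_a_at with 1425710_a_at (0.93, and 0.86 within times), and the next within times was 1437363_at with 1439662_at (0.52). Within times, 1436387_at ran against 1425710_a_at (-0.85). Mice of 1 time that were high in one Homer1 probe set were thus not in general high in the others.

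Homer2, which encodes a long Homer protein, showed no such course. Neither of its 2 tested probe sets passed the F-test over the 4 time points at an adjusted p under 0.20, which 1.93% of all tested probe sets did, and the unadjusted p-values were not under 0.05 either. For 1424367_a_at the values were 9.79, 9.54 and 9.52 at ZT3, 10.30, 9.85 and 9.66 at ZT9, 9.84, 9.95 and 10.14 at ZT15 and 9.91, 9.70 and 10.15 at ZT21. The ZT3 mice lay lowest on average and below all ZT15 mice, but overlapped with ZT9 and ZT21, and limma gave a range of 0.36 with a standard error of 0.17 and an adjusted p of 0.464. Its difference of ZT15 minus ZT9 was 0.04, with a 95% interval of -0.33 to 0.41. For 1457671_at the values were 9.08, 9.09 and 9.05, then 9.22, 9.18 and 9.10, then 9.19, 9.05 and 8.86, and last 8.92, 8.89 and 9.18, with the highest mean at ZT9 (range 0.17, standard error 0.11, adjusted p = 0.657 from limma). In the order ZT21, ZT15, ZT3 and ZT9, neighbours overlapped except ZT3 and ZT9. Its ZT15 minus ZT9 was -0.14 (95% interval -0.37 to 0.10). The multiclass SAM statistic, the test of the study's methods, passed neither probe set, and limma with array weights passed both (adjusted p = 0.0605 and 0.176), a setting that passed 14718 of all tested probe sets, or 60%.

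The third Homer2 probe set, 1436110_at, was dim, with a mean log2 of 4.39, and was not tested. It lay between 4.21 and 4.92 at ZT3, 3.92 and 4.53 at ZT9, 4.48 and 4.73 at ZT15 and 3.86 and 4.41 at ZT21. Neighbouring times in its order overlapped throughout. Homer3, the family member best known from cerebellar Purkinje cells, was flat and near the bottom of the scale, with a mean of 2.99 against a median of 5.42 over all probe sets. Its 12 values lay between 2.93 and 3.03, the range was 0.04 and all times overlapped. At this signal a change of Homer3 would not be measured reliably.

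**Figure D3:**
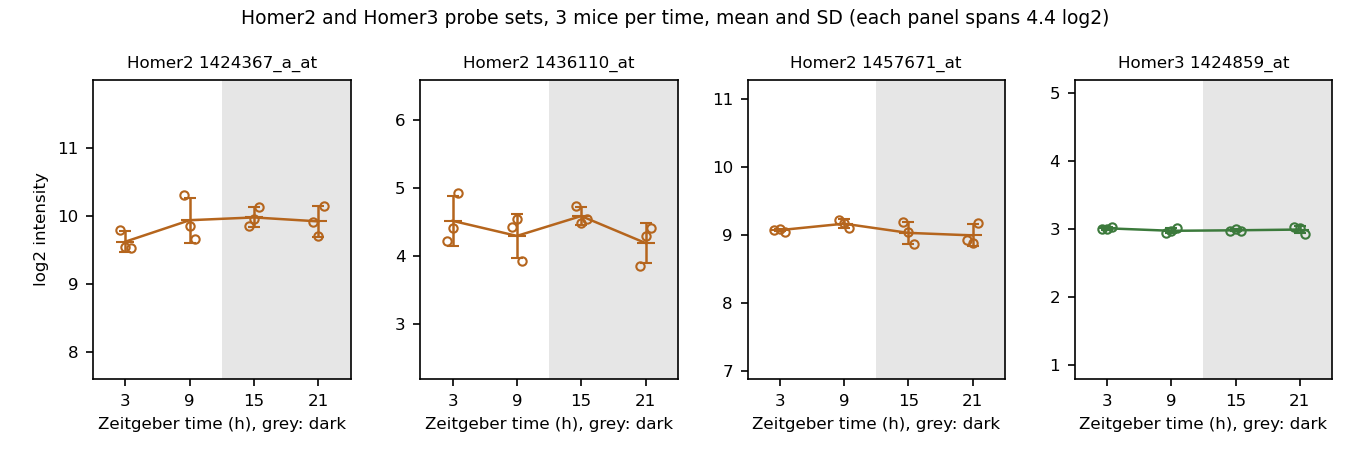
Log2 intensity of the 3 Homer2 probe sets and the Homer3 probe set (vertical axis, each panel with the same span as the panels of Homer1) against zeitgeber time in hours, with grey for the dark phase. Circles are the 3 mice at each time and bars the mean and SD; the widest range is 0.40, of the untested 1436110_at, and Homer3 stays between 2.93 and 3.03.

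The receptors that Homer proteins bind, and the proteins that carry their signal, were called by SAM in part and by limma not at all. Of 17 listed genes of group I metabotropic glutamate receptor signaling, 13 were annotated by probe sets of their own and 12 tested, each by its probe set of highest mean. In limma's F-test 0 of 12 passed (background 1.93%), with 5 at an unadjusted p under 0.05, where 15.5% of all tested probe sets lay, and 5 by SAM, which called 18.2% of all. Their median ZT15 minus ZT9 was 0.04, against -0.01 over all tested probe sets. Grm5, the receptor mGluR5, had means of 10.65 ± 0.08 at ZT3, 10.98 ± 0.17 at ZT9, 10.69 ± 0.14 at ZT15 and 10.53 ± 0.23 at ZT21 (SD, n = 3 mice), which gave an adjusted p of 0.296 in limma's F-test. Its highest mean fell at ZT9, where Homer1 was lowest, and its second probe set had a range of 0.23 (adjusted p = 0.633). The other 3 genes of smallest p were Grasp, also called tamalin, a scaffold of these receptors (range 0.71, adjusted p = 0.281), Dgkz, a diacylglycerol kinase (0.49, adjusted p = 0.296) and Camk2a, a subunit of CaM kinase II (0.45, adjusted p = 0.302). Their further probe sets ranged over 0.41 and 0.09 (Grasp), 0.37 (Dgkz) and 0.16 to 0.73 (Camk2a), and none passed. Those of Camk2a differed in course, with the highest mean at ZT3 or at ZT15. Without ZT9 replicate 1 the count was 3, where 12.3% of all tested probe sets passed, and without ZT21 replicate 3 it was 2, where 11.7% passed.

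Homer ligands and the scaffolds linked to them gave the same count in limma. Of 22 listed, 19 were annotated and 17 tested, and limma's F-test passed 0, with 3 at an unadjusted p under 0.05 and 4 by SAM, against 15.5% and 18.2% of all tested probe sets. Their median ZT15 minus ZT9 was -0.06, and 8 of 17 were higher at ZT15. Shank3, a master scaffold of the postsynaptic density, was highest at ZT15 and ranged over 0.30 (adjusted p = 0.346), while the probe set of Shank1 was too dim to be tested. Ryr2, a calcium release channel, was read by 2 probe sets, the brighter ranging over 0.34 (adjusted p = 0.407), the dimmer over 1.41 (adjusted p = 0.354). Dlgap2, of a family that links Shank to PSD-95, was low at ZT9 and highest at ZT21 (0.48, adjusted p = 0.284). Cttn, which encodes cortactin, a partner of Shank at actin, had ranges of 0.13 to 0.56 over 5 probe sets (smallest adjusted p = 0.284), and the channels Trpc5 and Trpc4 had 0.52 and 0.42 (adjusted p = 0.297 and 0.328). Counting every tested probe set added Dlgap4, by 1 probe set with a range of 0.68 (adjusted p = 0.188), while its brightest had 0.32 (adjusted p = 0.443). The count was 2 without ZT9 replicate 3 and 1 without ZT9 replicate 1, ZT15 replicate 3 or ZT21 replicate 3, settings in which 5.61% to 12.3% of all tested probe sets passed. In neither list did any gene pass for ZT15 minus ZT9, where limma called 0.444% of all tested probe sets higher and 0.122% lower at an adjusted p under 0.20. At an unadjusted p under 0.05 the receptor list had 1 lower (3.44% of all tested probe sets) and the ligand list 2 higher (3.75%).

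Activity-regulated genes, the class to which the short Homer1 transcript belongs, moved more often. Of 35 listed, 33 were tested and 11 (33.3%) passed limma's F-test over time, against 1.93% of all tested probe sets. Of these 11, 10 were highest at ZT15, as were 226 of the 473 probe sets that passed among all tested. The list was written with earlier results of these arrays known, so its count is a description. For ZT15 minus ZT9, 8 of the 33 passed as higher in limma at an adjusted p under 0.20 (background 0.444%). As lower, 0 passed (background 0.122%). Not all of these 8 are among the 11. Over the 33 the median difference was 0.28, and 24 were positive. The interval was also chosen with earlier results known, so these counts are a description. The 11 called over time differed in their lowest time. Nptx2, Bdnf, Egr3, Vgf and Inhba were lowest at ZT9, as Homer1 was, and Ier5, Per1, Nr4a3, Egr1, Klf10 and Nr4a2 at ZT3. Inhba, Nr4a3, Egr1, Klf10 and Nr4a2, and below Arc, Fos, Dusp6, Junb and Nr4a1, were named after their values were seen.

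Bdnf, the neurotrophin, had 8.44, 8.38 and 7.99 at ZT3, 8.06, 7.98 and 7.62 at ZT9, 8.88, 9.17 and 9.14 at ZT15 and 8.29, 8.66 and 8.46 at ZT21. Its ZT15 mice stood above all others, and the rise from ZT9 was 1.18 (standard error 0.16, adjusted p = 0.0176 in limma). In its dimmer probe set the rise was 0.74 (standard error 0.12, adjusted p = 0.0442 in limma). The interval was chosen because earlier results of these arrays put the Homer1 extremes there, so these p-values are descriptions. For Ier5, which early responses to stimulation induce, the values of its brightest probe set were 10.13, 10.18 and 10.04 at ZT3, 10.37, 10.52 and 10.46 at ZT9, 11.04, 11.22 and 11.57 at ZT15 and 10.72, 10.95 and 10.85 at ZT21. No times overlapped in this probe set, and the order ran from ZT3 over ZT9 and ZT21 to ZT15 (F-test adjusted p = 0.0148 from limma). ZT3 and ZT9 overlapped in the other 2 Ier5 probe sets (F-test adjusted p = 0.0613 and 0.0719 from limma). Per1, a clock gene that activity also induces, had 6.88, 6.72 and 6.83 at ZT3 and 8.40, 8.39 and 8.40 at ZT9, so it already stood well above ZT3 where Homer1 was lowest (F-test adjusted p = 0.0488 from limma). Arc and Fos, the best known members, did not pass. Arc had a range of 2.27 with a standard error of 0.80 (adjusted p = 0.326) and Fos 1.89 with 0.82 (adjusted p = 0.395). Both were lowest at ZT3. Replicate 1 was the lowest of the 3 mice at all 4 times in Arc, Dusp6, Egr1, Junb and Nr4a1, 5 of the 33 genes (15.2%), and in 0.741% of all tested probe sets. Its part in the counts was not tested beyond the fit with replicate number as a block, which passed 6 genes in place of 11. That fit passed 0.371% of all tested probe sets. The count of 11 was 7, 3 and 6 without ZT3 replicate 1, 2 and 3, 18 without ZT9 replicate 1, 5 without ZT15 replicate 2, and 7 and 17 without ZT21 replicate 2 and 3. Over all tested probe sets the share passing in these settings ran from 0.163% without ZT3 replicate 2 to 12.3% without ZT9 replicate 1. The call of Per1 was lost without ZT3 replicate 2 (adjusted p = 0.237).

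**Figure D4:**
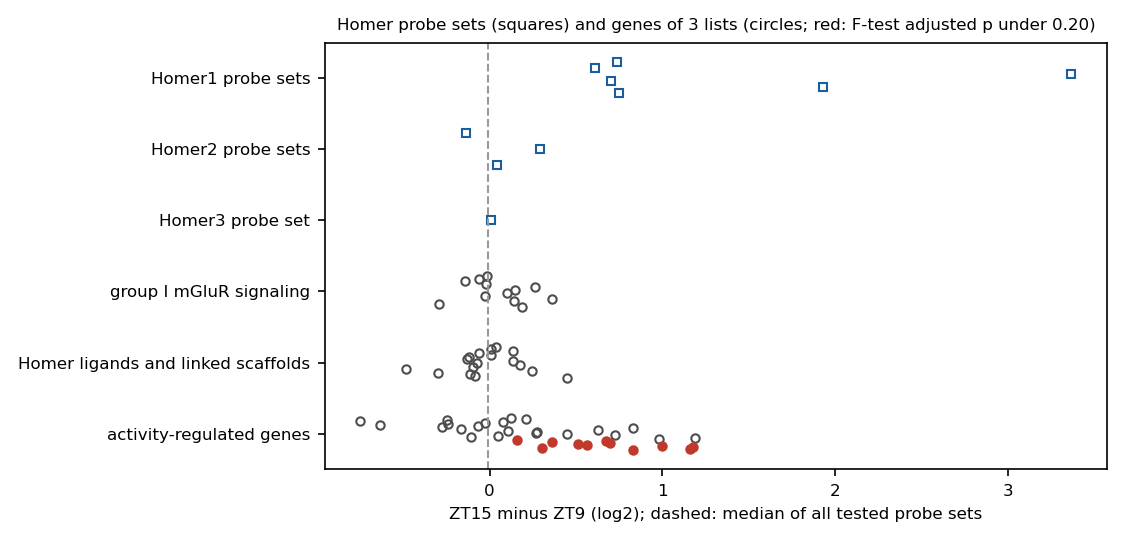
Difference of ZT15 minus ZT9 on the log2 scale (horizontal axis) for the Homer probe sets (squares) and for the tested genes of 3 lists (circles), with genes called over time by the F-test (adjusted p below 0.20) in red. The 6 Homer1 squares lie at 0.61 to 3.37, the receptor and ligand lists at -0.48 to 0.45, and the red circles belong to the activity-regulated genes alone.

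Among 20981 tested probe sets of other genes with 1 symbol, 28 had a Pearson's r above 0.8 with Homer1 1436387_at over the 12 arrays. The arrays share the 4 time points, and r is given as a measure of likeness. The closest was Nptx2, a secreted pentraxin that gathers AMPA receptors at synapses, at 0.93. Its values were 8.80, 8.77 and 9.06 at ZT3, 8.10, 7.82 and 7.53 at ZT9, 8.74, 8.93 and 9.26 at ZT15 and 8.56, 8.55 and 8.63 at ZT21. As in Homer1, its ZT9 mice lay below all others, but its ZT3 and ZT15 mice overlapped, and from ZT9 to ZT15 it rose by 1.16 against 3.37. A dimmer probe set of Nptx2 rose by 0.76. Next came Rbm15b, an RNA-binding protein, at 0.90. Its range of 0.22 lay below the median of 0.27 over all tested probe sets (adjusted p = 0.327 in limma's F-test). Then, at 0.89 each, came Sgsm1 (range 0.91), the transcription factors Etv5 (0.89) and Egr3 (1.00), the splicing factor Sfpq (0.79) and the scaffold Iqgap2 (0.73). Vgf, a neuropeptide precursor (0.51), Hnrnpm, an RNA-binding protein (0.35), and Galnt9, an enzyme of O-glycosylation (0.81), followed at 0.87 each. Nptx2, Egr3 and Vgf are also in the activity list, which was written with earlier results of these arrays known. Over the other tested genes of that list r ran from -0.35 to 0.83. Each of the 10 was lowest at ZT9, and each was highest at ZT15 but for Hnrnpm, whose highest mean was at ZT21. They were chosen by their likeness to 1436387_at, so this shared course follows from the choice.

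**Figure D5:**
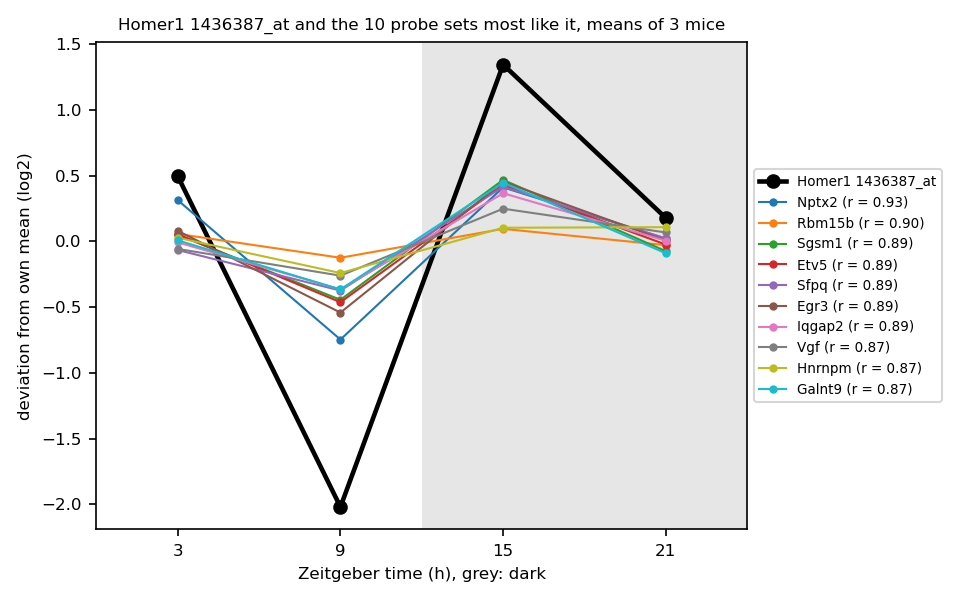
Deviation of the time means from the probe set's own mean, in log2 (vertical axis), for Homer1 1436387_at (black) and the 10 probe sets with the highest Pearson's r to it over 12 arrays, against zeitgeber time in hours with grey for the dark phase. Points are means of 3 mice. All 11 have their lowest point at ZT9, which the choice by r favours, and the range of Homer1 is 3.37 against 0.22 to 1.16 for the others.

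Markers of the cortex and of tissue at its border were read beside these results. The cortical label was met by Slc17a7, Tbr1 and Neurod6, all bright enough to be tested, markers of excitatory cortical neurons, and the summed level of 4 such markers was 13.17 to 13.42 at ZT9 and 13.38 to 13.44 at ZT15. Of the markers of 9 cell types or regions, with 1 to 6 genes tested for each, 1 gene passed the F-test, where 1.93% of all tested probe sets passed. It was Cldn5, among 4 tested endothelial genes. With so few genes the count does not show whether the amounts of these cells held steady. Striatal markers (6 genes summed), of interest because Homer genes are active in the striatum, lay at 10.56 to 11.02 at ZT3, 10.81 to 11.53 at ZT9, 10.86 to 11.05 at ZT15 and 10.81 to 11.14 at ZT21, so they were higher on average at ZT9 and the times overlapped. Choroid plexus markers (5 genes) reached 14.87 in 1 ZT9 mouse and 14.21 in 1 ZT15 mouse and lay between 9.70 and 12.45 at ZT3 and ZT21. Of 5 olfactory bulb markers, 4 were too dim to be tested, Th and Tbx21 among them. The part of these tissues in the Homer values was not tested.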

How the data were processed

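Intensities were deposited for 45101 probe sets, 64 of them controls, on 12 Affymetrix Mouse430_v2 arrays, 1 mouse per array. The authors extracted these intensity values with GCRMA in GeneSpring and took detection calls from MAS 5.0, which are not used here. Background correction and normalization over all arrays set the lower end of the scale, so small values of dim probe sets are compressed. Arrays correlated at 0.991 to 0.998, mean intensity was 344 to 398 per array, and the sources name no batch. The number of arrays limits the precision.

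Values were taken as log2, controls left out, and the 24546 probe sets of highest mean tested, the number the authors kept by their calls. Differences between time points were tested in R 4.3.3 by limma 3.58.1 (lmFit, eBayes, moderated F-test, and two-sided moderated statistics for ZT15 minus ZT9), Benjamini-Hochberg adjusted over all tested probe sets at 0.20. No value of Homer1 was tested. The calculations were tested on simulated data. Gene names are from the platform annotation, where 34945 probe sets have 1 symbol, 932 several and 9160 none, and sequences are from RefSeq (GRCm38.p6). The members, the gene lists and the interval from ZT9 to ZT15 were chosen with earlier results of these data known. Named are the Homer probe sets, the 10 probe sets of highest r with the Homer1 probe set of largest range, 4 genes per list by smallest F-test p, and Grm5, Shank1, Shank3 and Ryr2; some listed genes are not analysed here. The alternatives were quantile normalization, median centring, no filter, the 15000 brightest probe sets, log2 of value plus 16, an intensity trend with robust prior, array weights, a replicate block, each array left out, the multiclass SAM statistic with 100 permutations, and any probe set per gene. SAM for the lists was added after seeing the data. Tables and figures were made with numpy 2.4.6, pandas 2.3.3 and matplotlib 3.10.9 under Python 3.11.15.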

Additional observations from a re-analysis of the deposited data

How the results depend on the processing

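The 6 Homer1 ranges moved by less than the spread between mice under every alternative run, the largest lying between 3.28 and 3.50 when 1 array was left out. The dim 1425671_at is not among the 15000 brightest probe sets and has no value there. Counts depended far more on the processing, and the cause was not tested. Against 473 probe sets over time, quantile normalization gave 2144, median centring 252, no filter 194, the 15000 brightest 1330, array weights 14718, SAM 4464 and leaving out 1 array 40 to 3025. As shares of all tested probe sets, against 1.93%, these were 8.73% (quantile normalization), 1.03% (median centring), 0.431% (no filter) and 8.87% (15000 brightest). Array weights passed 60%, SAM 18.2% and leaving out 1 array 0.163% to 12.3%. The list counts below are to be read beside these shares. Against 139 for ZT15 minus ZT9 they gave 381 (quantile normalization), 91 (no filter), 684 (array weights) and 71 to 147 (1 array left out). For the 2 tested probe sets of Homer2 the count of 0 was 2 with array weights and 0 without any 1 array. Homer3 was too dim for these tests and entered only with no filter, where the count was 0. For the receptor list the count of 0 was 3 with quantile normalization, 1 with the 15000 brightest, 9 with array weights, 5 with SAM and 0 to 3 without 1 array. For the ligand list it was 1, with quantile normalization or any probe set of a gene, 11 with array weights, 4 with SAM and 0 to 2 without 1 array. The activity list had 11 and gave 5 with no filter, 27 with array weights, 19 with SAM and 3 to 18 without 1 array.

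Over all tested probe sets, mice of the same replicate number did not deviate together (median r of -0.09 over 18 pairs, 6 of them above 0.1, against 0.06 over 36 pairs of different number), so the numbers were not taken to pair the mice, although 5 of the 33 activity genes had replicate 1 lowest at every time. With the replicate block, 91 probe sets (0.371% of all tested) passed over time, 72 for ZT15 minus ZT9 and 6 of the activity list. The counts for Homer2, the receptors and the ligands stayed at 0.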
